A study of Homo sapiens with 4 samples.

Results

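The FAS and TRAIL death receptor system was described through 10 genes in Raji cells, an established Burkitt lymphoma line. All probe sets whose platform annotation names one of these genes alone were taken, which gave 41 of the 54613 probe sets on the array. The genes comprise the ligands FASLG and TNFSF10 (TRAIL), the receptor FAS, the TRAIL receptors TNFRSF10A and TNFRSF10B, the TRAIL decoy receptors TNFRSF10C and TNFRSF10D, the adaptors FADD and TRADD, and the inhibitor CFLAR (c-FLIP). RNA was taken from a DLEU1-downregulated Raji clone and from a wild-type Raji control. DLEU1 is a gene for a long non-coding RNA, and it was targeted with TALENs, engineered proteins that bind and cut a set stretch of DNA. Each clone was hybridised to 2 Affymetrix HG-U133 Plus 2.0 arrays. Both clones were grown in RPMI medium with serum, and the treatment note about DLEU1-directed TALENs is attached to the control samples as well. Each genotype is thus 1 clone, and no source used here says whether its arrays came from separate cultures, so p-values reflect the spread between arrays alone, which may be technical.

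Death receptors of the tumour necrosis factor receptor family pass a signal from the cell surface to a caspase cascade. When FASLG binds FAS, or TRAIL binds TNFRSF10A or TNFRSF10B, the receptor's intracellular death domain recruits FADD, and FADD recruits the initiator caspase CASP8 into a complex that starts apoptosis. CFLAR resembles CASP8 and competes with it in that complex, and its transcription is known to be raised by NF-kB. In germinal centre B cells, the normal counterparts of Burkitt lymphoma, FAS takes part in the removal of cells, and its ligand is made mainly by activated T cells and natural killer cells.

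The deposited intensities do not share a common scale. Trimmed mean intensities were 172 and 197 on the DLEU1-downregulated arrays, against 163 and 131 on the control arrays. Changes are therefore given as the difference in log2 intensity, DLEU1-downregulated minus control, after quantile normalization, while intensities of single arrays are printed as deposited. The scale matters for bright probe sets. The median log2 change over all tested probe sets was 0.01 after quantile normalization and 0.16 as deposited. The DLEU1 probe set read 523.7 and 616.9 on the DLEU1-downregulated arrays, against 1363.4 and 1023.8 on the control arrays (log2 change -1.38, limma adjusted p = 2.90e-06). B-cell markers were bright on every array, with summed intensities over 7 genes of 14372 and 16295 on the DLEU1-downregulated arrays, against 15651 and 12999 on the control arrays. Of these 7 markers 6 were lower after quantile normalization, where 20.6% of all tested genes were lower. As deposited limma called 0 of them, where 5.74% of all tested genes were lower, and 1 marker had an unadjusted p under 0.05.

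In the DLEU1-downregulated clone, after quantile normalization, the ligand TNFSF10 was lower in all 3 of its probe sets. The receptors TNFRSF10A and TNFRSF10B were lower in 5 of 6 tested probe sets, and single probe sets of FAS and TRADD and a pair of CFLAR probe sets were higher. The receptor result depended on the scale, since as deposited TNFRSF10A and TNFRSF10B were each called lower in 1 of 3 tested probe sets. Of the 41 probe sets, 31 were bright enough to be tested, and 13 of them passed an adjusted p of 0.05 by limma, 4 higher and 9 lower. Among all 32768 tested probe sets, 33.8% passed, 17.0% higher and 16.7% lower. The groups did not overlap in 11 of the 31 with the DLEU1-downregulated arrays above and in 12 with them below, against 33.5% and 32.5% of all tested probe sets. The members' shares were 12.9% higher and 29.0% lower. On the deposited scale 5 of the 31 were higher and 5 lower, against 17.2% and 5.11% of all probe sets (22.3% either way). With each array centred on its median instead, 15 of the 31 were higher and 6 lower, as were 10420 and 2482 of all 32768 probe sets, so how the members compare with all probe sets depends on the scaling. On both scales, 9 probe sets passed in the same direction and 0 in opposite directions. The median log2 change of the 31 was -0.00 after quantile normalization. An exact permutation test on 2 against 2 arrays cannot go below p = 0.333, so the calls rest on the spread that limma shares across probe sets. In RNA from a bulk culture, fewer cells that express a gene and less RNA per cell cannot be told apart.

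**Figure D1:**
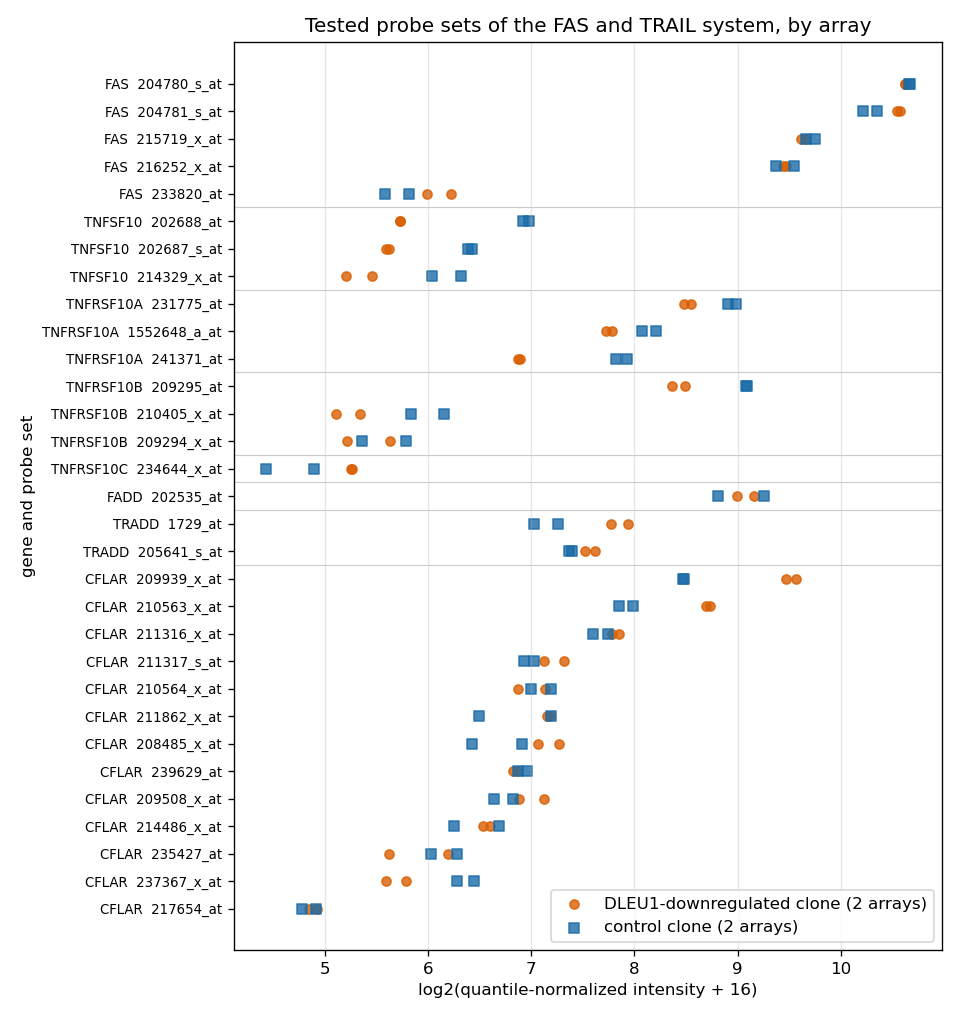
Log2 of the quantile-normalized intensity plus 16 (horizontal axis) for the 31 tested probe sets (vertical axis, grouped by gene), with a point for each of the 2 DLEU1-downregulated arrays (circles) and the 2 control arrays (squares). All 3 TNFSF10 probe sets have their DLEU1-downregulated points left of the control points, and CFLAR 209939_x_at has them to the right.

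TNFSF10 encodes TRAIL, the ligand that triggers apoptosis through TNFRSF10A and TNFRSF10B. Its brightest probe set, 202688_at, read 35.9 and 40.3 on the DLEU1-downregulated arrays, against 107.3 and 89.4 on the control arrays. The groups did not overlap, and the mean of 38.1 ± 3.11 in DLEU1-downregulated cells stood against 98.3 ± 12.7 in control cells (SD, n = 2 arrays each). This was a log2 change of -1.23 ± 0.16 (SE, limma adjusted p = 4.42e-04). Probe set 202687_s_at read 31.2 and 35.9 on the DLEU1-downregulated arrays, against 72.8 and 55.9 on the control arrays (log2 change -0.80, adjusted p = 0.00792 by limma). The suffix of probe set 214329_x_at marks probes that may bind other transcripts. Probe sets with this suffix are called cross-hybridising below, although whether they bind other transcripts was not tested. Probe set 214329_x_at read 26.9 and 21.2 on the DLEU1-downregulated arrays, against 52.6 and 53.1 on the control arrays (log2 change -0.85, adjusted p = 0.0136 by limma). TNFSF10 was thus lower in every probe set, and all 3 also passed on the deposited scale, with log2 changes from -1.08 to -0.69. The signals are low ones, since the value below which probe sets were left out corresponds to an intensity of 11.3. The call of 202687_s_at was lost without DLEU1-downregulated replicate 1 (adjusted p = 0.058), and that of 214329_x_at without DLEU1-downregulated replicate 2 (adjusted p = 0.1) or control replicate 2 (adjusted p = 0.0673), in limma fits that leave 1 array in a group. Keeping all dim probe sets in the test also ended the call of 214329_x_at (adjusted p = 0.0588 by limma).

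The promoters of TNFSF10, FAS and CFLAR are shown as 3 of the members with called probe sets, a ligand, a receptor and the inhibitor. Each runs from 250 bases before to 50 bases after an annotated start, 5′ to 3′ on the gene's strand, from RefSeq on GRCh38.p14. FAS has 3 such windows and CFLAR 4, of which the most upstream is printed. Capitals mark the letters TATAAA in TNFSF10, GGGCGG in FAS and, in CFLAR, a loose form of the NF-kB motif (GGG, any 5 bases, CC), each searched on both strands.
TNFSF10, chr3:172523381-172523680, minus strand: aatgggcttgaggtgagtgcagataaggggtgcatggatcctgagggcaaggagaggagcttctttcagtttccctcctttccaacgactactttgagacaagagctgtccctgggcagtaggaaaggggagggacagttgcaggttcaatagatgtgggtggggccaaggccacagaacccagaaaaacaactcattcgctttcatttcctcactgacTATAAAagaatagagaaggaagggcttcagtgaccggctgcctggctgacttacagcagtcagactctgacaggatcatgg
FAS, chr10:88990548-88990847, plus strand: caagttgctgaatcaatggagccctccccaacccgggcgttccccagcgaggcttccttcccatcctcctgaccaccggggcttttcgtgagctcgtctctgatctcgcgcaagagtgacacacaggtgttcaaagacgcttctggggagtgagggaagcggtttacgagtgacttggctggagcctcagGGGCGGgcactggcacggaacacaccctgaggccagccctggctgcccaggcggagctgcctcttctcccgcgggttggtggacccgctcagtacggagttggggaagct
CFLAR, chr2:201118466-201118765, plus strand: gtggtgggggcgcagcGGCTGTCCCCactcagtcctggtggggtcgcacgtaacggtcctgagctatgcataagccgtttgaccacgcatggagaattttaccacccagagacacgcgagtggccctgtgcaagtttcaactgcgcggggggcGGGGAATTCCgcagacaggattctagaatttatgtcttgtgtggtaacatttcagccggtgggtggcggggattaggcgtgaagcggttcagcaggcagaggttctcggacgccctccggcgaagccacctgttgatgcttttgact
The TNFSF10 window holds TATAAA 31 bases before the start, and 11.5% of 35116 promoter windows of this length hold these letters. The FAS window holds GGGCGG once, at 60 bases before the start, and 45% of all windows hold it. The CFLAR window holds the loose NF-kB motif at 234 and 97 bases before the start, and 58.7% of all windows hold such a match. The match at 97 bases overlaps a GGGCGG at 101 bases. Of the CFLAR windows not printed, those that begin at positions 201128715 and 201132531 hold 0 such matches, and the one at 201140025 holds 1. The TNFSF10 window also holds 1 match to the loose NF-kB motif, at 93 bases before the start, and the FAS window holds 2 that overlap each other. A match describes the letters and no more.

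FASLG, the ligand of FAS, was near the bottom of the scale in both clones and was not tested. Its probe set 211333_s_at read 7.6 and 14.3 on the DLEU1-downregulated arrays, against 4 and 2.4 on the control arrays. Probe set 210865_at read 6.8 and 8.1 on the DLEU1-downregulated arrays, against 2.7 and 4.6 on the control arrays. The DLEU1-downregulated arrays were above the control arrays in both probe sets, but all these values lie under the median intensity of their arrays, which ranged from 18.4 to 22.6. Markers of T and natural killer cells, the usual source of FASLG, summed over 10 genes to 132 and 147 on the DLEU1-downregulated arrays, against 137 and 123 on the control arrays. Of these markers 4 could be tested and limma called 0 (0 at unadjusted p under 0.05). The T-cell gene CD3E read 10.7 and 17.1 in DLEU1-downregulated cells, against 20 and 11.9 in control cells. NKG7, the brightest of these markers, read 44.5 and 64.2 in DLEU1-downregulated cells, against 33.1 and 37.1 in control cells (log2 change 0.34, adjusted p = 0.261 by limma). Of the markers too dim to be tested, GNLY also lay above the control arrays and GZMB below them, while the others overlapped.

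FAS, the receptor of FASLG, was measured by 5 probe sets that did not all move together. Probe set 204781_s_at read 1581.9 and 1790.5 on the DLEU1-downregulated arrays, against 1157.5 and 1025.6 on the control arrays. It was higher without overlap (log2 change 0.27 ± 0.06 SE, limma adjusted p = 0.00898, and 0.62 with adjusted p = 0.0317 as deposited). The call was lost without DLEU1-downregulated replicate 1 (adjusted p = 0.0712 by limma) and when the prior spread was not made to follow brightness (adjusted p = 0.125). The brightest FAS probe set, 204780_s_at, read 1640.4 and 1885.4 on the DLEU1-downregulated arrays, against 1564.8 and 1286.6 on the control arrays. Its sign depended on the scale, with a log2 change of -0.04 (95% interval -0.16 to 0.08) after quantile normalization and 0.31 as deposited, neither of which passed. The cross-hybridising probe sets 215719_x_at and 216252_x_at behaved alike, with log2 changes of -0.07 and -0.00 that turned to 0.29 and 0.34 as deposited. The dim probe set 233820_at read 47.4 and 66.3 on the DLEU1-downregulated arrays, against 34.7 and 34.5 on the control arrays (log2 change 0.41, adjusted p = 0.153 by limma). FAS was therefore called higher in 1 of its 5 probe sets on each of these scales. After median centring all 5 passed as higher, with log2 changes from 0.34 to 0.66.

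**Figure D2:**
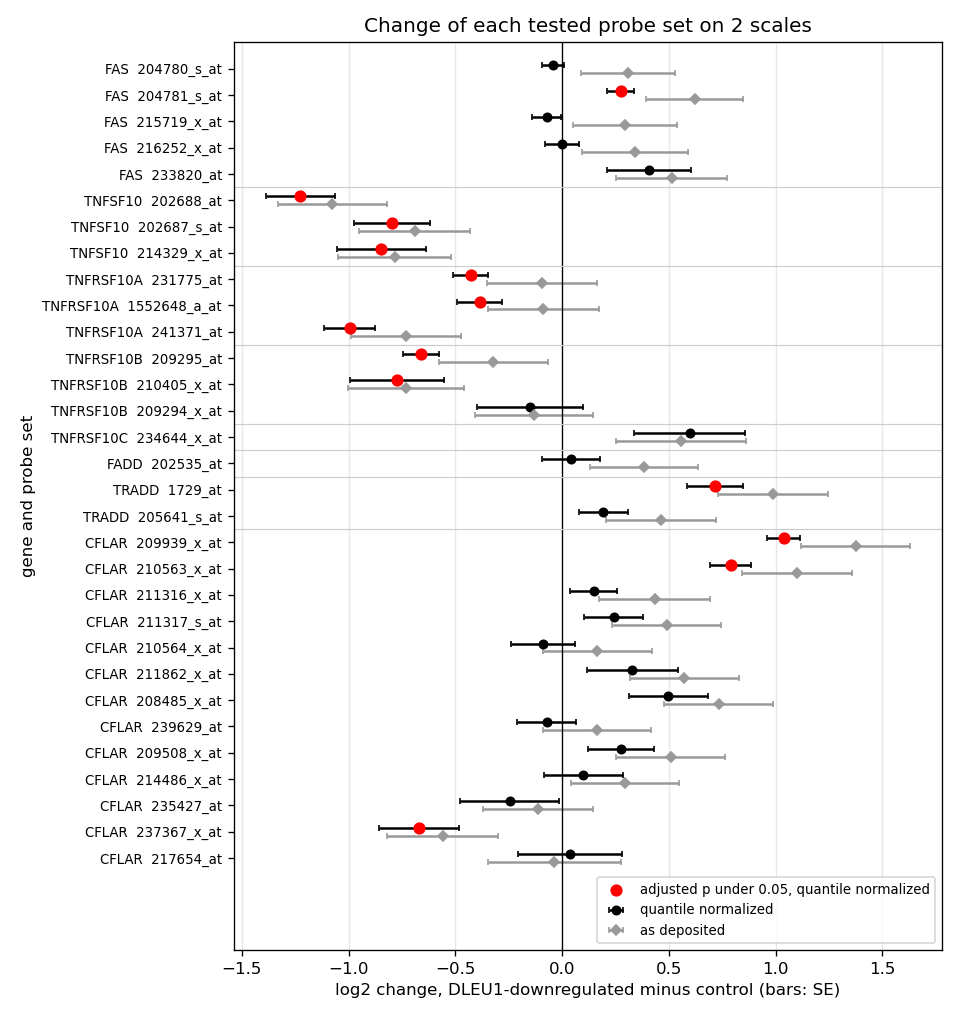
Log2 change, DLEU1-downregulated minus control (horizontal axis, bars show the SE), of the 31 tested probe sets after quantile normalization (circles, red where the limma adjusted p was under 0.05) and as deposited (diamonds). Bright probe sets of FAS and TNFRSF10A lie further right as deposited, while TNFSF10 lies left of 0 and CFLAR 209939_x_at right of 0 on both scales.

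The TRAIL receptors TNFRSF10A and TNFRSF10B carry death domains and signal apoptosis. TNFRSF10A probe set 241371_at read 106.2 and 117.3 on the DLEU1-downregulated arrays, against 228.1 and 168.4 on the control arrays. It was lower on both scales, with a log2 change of -0.99 ± 0.12 (SE, limma adjusted p = 2.63e-04) and -0.73 as deposited (adjusted p = 0.0249). The brightest TNFRSF10A probe set, 231775_at, read 377.5 and 413.6 on the DLEU1-downregulated arrays, against 488.1 and 366.9 on the control arrays. These deposited values overlap. After quantile normalization the log2 change was -0.43 (adjusted p = 0.00391 by limma), and as deposited it was -0.10 (adjusted p = 0.842). Median centring likewise ended this call, that of 1552648_a_at and that of TNFRSF10B 209295_at. Probe set 1552648_a_at went likewise, with log2 changes of -0.39 (adjusted p = 0.0198 by limma) and -0.09 as deposited (adjusted p = 0.857). It also lost its call without either DLEU1-downregulated array and without control replicate 2.

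TNFRSF10B was lower in 2 of 3 tested probe sets. Probe set 209295_at read 326.2 and 417.2 on the DLEU1-downregulated arrays, against 522.6 and 414.5 on the control arrays. Its log2 change was -0.66 ± 0.09 (SE, limma adjusted p = 3.99e-04) after quantile normalization and -0.32 as deposited, where it did not pass (adjusted p = 0.399). The dim cross-hybridising probe set 210405_x_at read 23.4 and 18.3 on the DLEU1-downregulated arrays, against 44 and 46.2 on the control arrays, and was lower on both scales (log2 change -0.77, adjusted p = 0.0248, and -0.73, adjusted p = 0.0351, by limma). This call was lost without either DLEU1-downregulated array and without control replicate 2 (adjusted p = 0.0661 to 0.152), and when dim probe sets were kept (adjusted p = 0.0926). The third probe set, 209294_x_at, had overlapping groups and a log2 change of -0.15 (adjusted p = 0.688), and 1556645_s_at was too dim to be tested.

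The decoy receptors bind TRAIL without a working death domain, and 5 of their 6 probe sets were too dim to be tested. Both TNFRSF10D probe sets lay between 1.2 and 11.1 on the 4 arrays and were not tested. Of the 4 TNFRSF10C probe sets 3 were not tested, with 206222_at at 1.1 and 1.6 on the DLEU1-downregulated arrays, against 12.3 and 1.4 on the control arrays. The cross-hybridising probe set 234644_x_at read 21.2 and 22.5 on the DLEU1-downregulated arrays, against 6.8 and 13 on the control arrays. The groups did not overlap, but the log2 change of 0.60 did not pass (adjusted p = 0.114 by limma), and its direction opposes that of TNFRSF10A and TNFRSF10B. The 10 member probe sets that were not tested had single values from 1.1 to 15.2, and no detection calls were at hand to tell whether such values exceed background.

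All 4 TRAIL receptor genes lie side by side on chromosome 8, so their neighbours were read as well, a choice made after the receptor values were seen. Of the 30 tested genes next to them, 15 on each side in RefSeq order, 14 were lower and limma called 0 higher (1 at unadjusted p under 0.05, SFTPC, a lung surfactant gene, at a log2 change of 0.62). Among all 13292 tested genes, taken by their brightest probe sets, 20.6% were higher and 20.6% lower. The median log2 change of the 30 neighbours was -0.47, and that of 475 tested genes of chromosome 8 was -0.10. Of these 475 genes, 136 were lower and 78 higher after quantile normalization. On the side next to TNFRSF10A, 10 of 15 were lower, and on the side next to TNFRSF10B 4 of 15 were. LOXL2, a lysyl oxidase, read 119.8 and 179.9 on the DLEU1-downregulated arrays, against 393.9 and 266.3 on the control arrays (log2 change -1.36). ENTPD4, a nucleotide hydrolase, read 721 and 671.2 on the DLEU1-downregulated arrays, against 1308.1 and 1219.4 on the control arrays (log2 change -1.19). PPP3CC, a catalytic subunit of calcineurin, had a log2 change of -1.39, and TNFRSF10A-DT, a transcript that starts beside TNFRSF10A, one of -0.49 (adjusted p = 0.041 by limma). On the deposited scale 7 of the 30 neighbours were lower and limma called 0 higher (1 at unadjusted p under 0.05), where 5.74% of all genes were lower and 20.3% higher. Of the 475 genes of chromosome 8, 52 were lower and 83 higher on that scale. The brightest probe sets of TNFRSF10A and TNFRSF10B, compared here, changed by -0.43 and -0.66 after quantile normalization. As deposited they changed by -0.10 and -0.32 and did not pass. The falls of TNFRSF10A and TNFRSF10B after quantile normalization thus stood within a stretch of genes of which many were lower. The part of this stretch in the receptors' values was not tested.

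**Figure D3:**
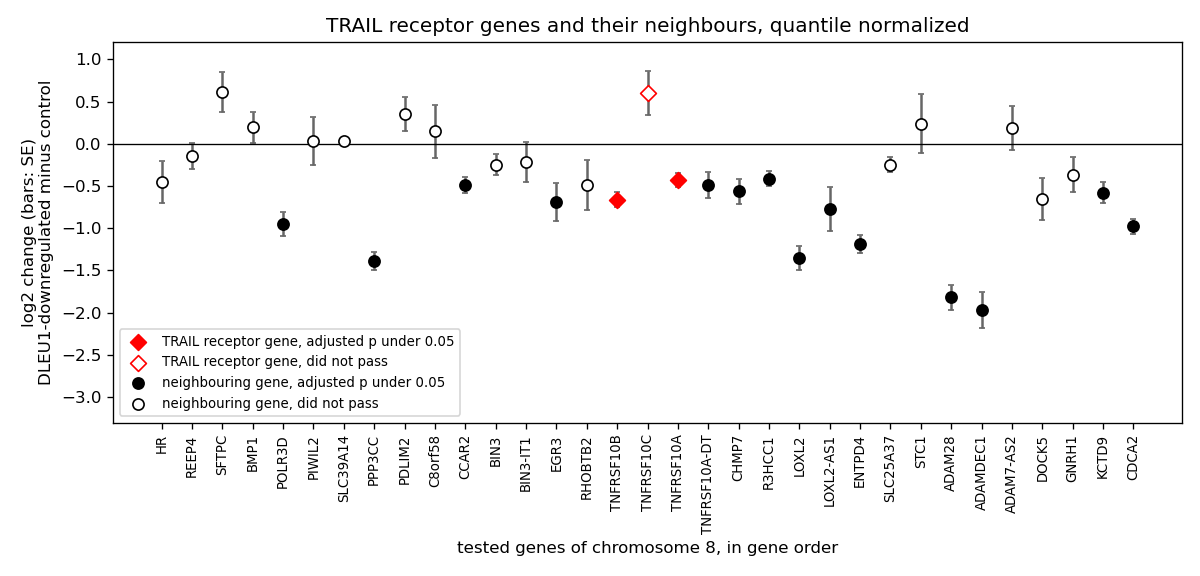
Log2 change, DLEU1-downregulated minus control, after quantile normalization (vertical axis, bars show the SE) of the tested TRAIL receptor genes (diamonds) and 15 tested neighbours on each side (circles), in gene order along chromosome 8 (horizontal axis). Filled symbols passed a limma adjusted p of 0.05, and all 14 filled neighbours lie below 0.

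FADD, the adaptor that links death receptors to CASP8, did not pass. Its single probe set, 202535_at, read 517.8 and 676.5 on the DLEU1-downregulated arrays, against 430.2 and 470.7 on the control arrays. The log2 change was 0.04 after quantile normalization, with a 95% interval of -0.27 to 0.35, and 0.38 as deposited (adjusted p = 0.289 by limma). After median centring it was 0.43 and passed (adjusted p = 0.0181 by limma). The quantile-normalized change turned negative without DLEU1-downregulated replicate 2 or control replicate 1.

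TRADD joins the tumour necrosis factor receptor to cell survival and death signals. Probe set 1729_at read 210.5 and 274.7 on the DLEU1-downregulated arrays, against 138.8 and 92.1 on the control arrays. It was higher without overlap (log2 change 0.72 ± 0.13 SE, limma adjusted p = 0.00291, and 0.99 with adjusted p = 0.00158 as deposited). Probe set 205641_s_at read 187.8 and 199.8 on the DLEU1-downregulated arrays, against 151.4 and 122.3 on the control arrays. Its groups did not overlap either, yet its log2 change of 0.19 did not pass (adjusted p = 0.243 by limma), while after median centring it was 0.51 and passed (adjusted p = 0.0158). The probe set 213443_at lay between 1.6 and 4 on all arrays and was not tested.

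CFLAR, the inhibitor that competes with CASP8 for FADD, was measured by 14 probe sets, 9 of them of the cross-hybridising kind, and 13 could be tested. Probe set 209939_x_at read 778.9 and 837.3 on the DLEU1-downregulated arrays, against 336.1 and 270.6 on the control arrays. Its mean was 808.1 ± 41.3 in DLEU1-downregulated cells and 303.4 ± 46.3 in control cells (SD, n = 2 arrays each), a 2.66-fold difference as deposited. This was a log2 change of 1.04 ± 0.08 (SE, limma adjusted p = 2.04e-05), and one of 1.37 as deposited. Probe set 210563_x_at read 418.1 and 490.8 on the DLEU1-downregulated arrays, against 216.2 and 190.3 on the control arrays (log2 change 0.79, adjusted p = 2.7e-04 by limma, and 1.10 as deposited). These probe sets were the only CFLAR ones called higher after quantile normalization, and they passed under all 13 other settings of scale, filter, fit and left-out array that were run on them. Both carry the cross-hybridisation suffix, so that limma called 0 of the 4 tested CFLAR probe sets without it higher (0 at unadjusted p under 0.05), with 211317_s_at at a log2 change of 0.24 (adjusted p = 0.217). After median centring 211317_s_at passed too (log2 change 0.53, adjusted p = 0.0146 by limma).

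The other CFLAR probe sets ranged from a log2 change of -0.67 to one of 0.50. Probe set 208485_x_at read 121.6 and 163.2 on the DLEU1-downregulated arrays, against 73 and 84.3 on the control arrays. Its log2 change of 0.50 did not pass (adjusted p = 0.0671 by limma), whereas as deposited it was 0.73 and did (adjusted p = 0.023). Probe set 237367_x_at went the other way, with 38.4 and 34.5 on the DLEU1-downregulated arrays, against 64.2 and 58.5 on the control arrays. It was lower after quantile normalization (log2 change -0.67, adjusted p = 0.0222 by limma) but did not pass as deposited (-0.56, adjusted p = 0.104), and the call was lost without either DLEU1-downregulated array and without control replicate 2 (adjusted p = 0.0665 to 0.144), and when dim probe sets were kept (adjusted p = 0.0731). The files do not say which CFLAR transcripts each probe set reads, so the calls cannot be assigned to its long or short forms. The antisense transcript CFLAR-AS1 read 9.9 and 12.5 on the DLEU1-downregulated arrays, against 16.2 and 2.7 on the control arrays, and was too dim to be tested.

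Genes with patterns most like those of a ligand and a receptor were sought by the root mean square distance of array-centred log2 values over the 4 arrays. For the brightest TNFSF10 probe set the nearest were PRDM15, a zinc finger gene, at a distance of 0.018, GGNBP2 at 0.018 and INPP5B, an inositol phosphatase, at 0.02. For the brightest FAS probe set they were MAPK1IP1L at 0.0073, TMX2, a thioredoxin-related membrane protein, at 0.0088 and SMAD2, a transducer of TGF-beta signals, at 0.0094. With 4 arrays in 2 groups such closeness mainly restates the log2 change between clones, which was -1.20 for PRDM15 and -0.05 for MAPK1IP1L.

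Other genes of the pathway were read from a list of 42, of which 36 had a probe set that names the gene alone and 32 could be tested by their brightest probe set. Of these 7 were higher and 5 lower, against 20.6% each way, and 41.2% in all, among all genes, and their median log2 change was -0.07. As deposited 6 were higher and 1 lower, where 20.3% and 5.74% of all genes passed, 26.1% in all. Among regulators near the receptor complex, PEA15, a death effector domain protein that can block apoptosis through FADD and CASP8, read 1835.1 and 2183.9 on the DLEU1-downregulated arrays, against 841.2 and 696 on the control arrays. Its log2 change was 1.00 ± 0.06 (SE, limma adjusted p = 6.09e-06). BID, which carries the signal from CASP8 to the mitochondria, read 858.2 and 1001.8 on the DLEU1-downregulated arrays, against 410.7 and 338.4 on the control arrays (log2 change 0.93, adjusted p = 2.26e-05 by limma). PEA15 and BID were higher on both scales, and each of their other tested probe sets, 1 for PEA15 and 2 for BID, was higher too.

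The remaining rises included TNFRSF21, a further receptor with a death domain (log2 change 0.66), DAXX, a FAS-binding protein that acts mainly in the nucleus (0.63, a cross-hybridising probe set), and DEDD, another death effector domain protein (0.52). GALNT14, a glycosyltransferase reported to modify TRAIL receptors, read 768.1 and 849.9 on the DLEU1-downregulated arrays, against 459.2 and 369.7 on the control arrays (log2 change 0.60). DIABLO, the mitochondrial antagonist of inhibitor of apoptosis proteins, had a log2 change of 0.20 (adjusted p = 0.029 by limma). As deposited its change was larger, at 0.55, but did not pass (adjusted p = 0.0611 by limma). Other tested probe sets of TNFRSF21, DAXX and DEDD did not pass.

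FCMR, an IgM receptor once named as an inhibitor of FAS-mediated death, was the only pathway gene lower on both scales. It read 22.3 and 22 on the DLEU1-downregulated arrays, against 229.4 and 155.3 on the control arrays. The log2 change was -2.55 ± 0.16 (SE, limma adjusted p = 8.34e-06), and its other tested probe set was lower as well. BIRC2, a ubiquitin ligase that inhibits cell death at the tumour necrosis factor receptor, read 992.1 and 1145.7 on the DLEU1-downregulated arrays, against 1443.7 and 1233.3 on the control arrays. Its log2 change was -0.68 (adjusted p = 4.72e-05 by limma) and -0.32 as deposited, where it did not pass (adjusted p = 0.342). ADAM10, a protease that sheds FASLG (log2 change -0.50), HIPK3, a kinase that binds FAS (-0.39), and EZR, which ties FAS to actin (-0.18), were lower after quantile normalization and did not pass as deposited, and the sign of EZR turned (0.20). Among their other tested probe sets, 1 of 2 for ADAM10 was called lower, while the 2 for HIPK3 and the 4 for EZR did not pass.

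The initiator caspases showed no call. CASP8 read 299.5 and 353.7 on the DLEU1-downregulated arrays, against 269.1 and 203.4 on the control arrays (log2 change 0.14, adjusted p = 0.292 by limma). CASP10 was dim, with 23.4 and 20.5 on the DLEU1-downregulated arrays, against 24.8 and 24 on the control arrays (log2 change -0.07, adjusted p = 0.843 by limma). CASP8 was above the control arrays on both DLEU1-downregulated arrays without passing, and CASP10 overlapped after quantile normalization.

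**Figure D4:**
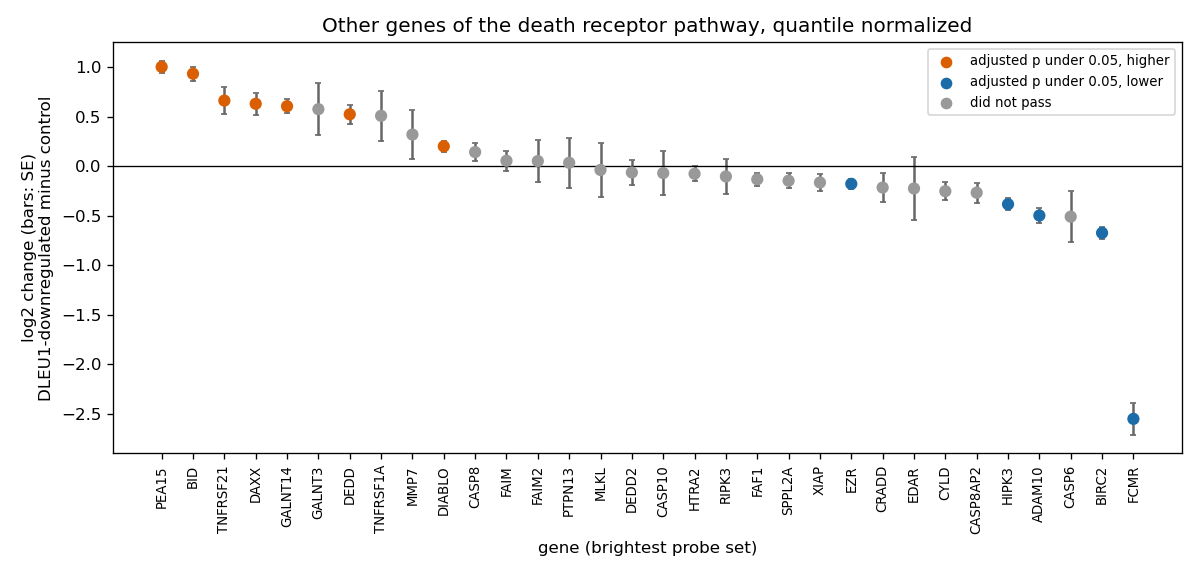
Log2 change, DLEU1-downregulated minus control, after quantile normalization (vertical axis, bars show the SE) of the brightest probe set of 32 tested pathway genes (horizontal axis, in order of change), in orange where called higher by limma, blue where called lower and grey where not called. The 7 genes called higher lie between 1.00 and 0.20, and FCMR stands apart at -2.55.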

How the data were processed

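Each array has 1 linear intensity per probe set, which the authors deposited and made with MAS5 per the submitters' processing notes. MAS5 works array by array, setting perfect-match against mismatch probes. The sources used here do not give its version, target intensity or detection calls. No column was left unused. The 62 control probe sets were left out.

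Values were turned into log2(intensity + 16) and quantile normalized, since the arrays had no common trimmed mean. The 21845 probe sets with a mean under the 40th percentile were left out. Differences were tested with lmFit and eBayes (trend on) of limma 3.58.1 under R 4.3.3, and p-values were Benjamini-Hochberg adjusted over the 32768 probe sets (threshold 0.05). eBayes gave 6.75 prior degrees of freedom. These were infinite for the values as deposited, where all probe sets of like brightness share 1 spread. The fit was tested on simulated data for this comparison with 32768 probe sets. It recovered 87.7% of 1.5-fold and 100% of 2-fold and 4-fold changes. At these folds changes were planted in 65, 61 and 74 probe sets, all brighter than those of TNFSF10, with noise drawn independently per array. There were 21 false calls, which are to be set against these planted changes rather than against all probe sets. Simulated probe sets of like brightness also shared 1 spread. The simulation thus does not cover dim probe sets, data in which 33.8% of probe sets pass, or spreads that differ at like brightness. A log2 change understates changes of dim probe sets, because of the added 16. The fold difference printed for CFLAR is a ratio of mean deposited values, without it.

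Symbols came from the platform annotation of 2016, updated by gene identifier through RefSeq (GRCh38.p14), which matched 41037 of 41091 probe sets with 1 symbol. Of the 42 pathway genes, 6 were not analysed here. Named are all members, the pathway genes past the threshold, at most 8 each way (7 higher and 5 lower passed), CASP8, CASP10 and BID, and the 3 genes nearest to FAS and to TNFSF10. The members, the lists and the scaling were chosen with earlier results of these data known. Alternatives were other scalings, pseudocounts, filters, a fit without the trend, the replicate number as a block, each array left out, _x_at probe sets left out, and averaging over the probe sets of a gene. Chromosome 8 neighbours were chosen after the data were seen.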

Additional observations from a re-analysis of the deposited data

How the results depend on the processing

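Over 13 other settings, TNFSF10 202688_at, TNFRSF10A 241371_at, TRADD 1729_at and CFLAR 209939_x_at and 210563_x_at kept their direction and their side of the threshold. Neither pseudocount (1 or 64) changed a call among the 31 tested member probe sets. As deposited, 5 members, 1 pathway gene and 1673 of all probe sets were lower. Median centring gave 15 members higher, 1 pathway gene lower, and 10420 probe sets higher and 2482 lower. Without the trend, 2 pathway genes were lower, and 3589 probe sets were higher and 3590 lower. Averaging over the probe sets of a gene gave 3 pathway genes lower. Leaving out _x_at probe sets gave 2 members higher, since both CFLAR rises are of that kind. The cause of the other moves was not tested.

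Leaving out 1 array gave 3 to 6 members higher and 5 to 9 lower (5 without either DLEU1-downregulated replicate and without control replicate 2). It gave 3352 to 5308 of all probe sets higher and 3653 to 4765 lower. The lone array is then assumed to vary like the other group. Among probe sets whose sign turned, log2 changes without 1 array ranged from -0.12 to 0.33 for CFLAR 214486_x_at, -0.024 to 0.69 for 211862_x_at, -0.51 to 0.042 for 235427_at, -0.21 to 0.036 for 210564_x_at and -0.030 to 0.10 for 217654_at. They ranged from -0.19 to 0.27 for FADD, -0.37 to 0.063 for TNFRSF10B 209294_x_at and -0.092 to 0.086 for FAS 216252_x_at.

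Scaling also turned signs. As deposited, FAS 204780_s_at was 0.31, 215719_x_at 0.29 and 216252_x_at 0.34, and CFLAR 210564_x_at 0.16, 239629_at 0.16 and 217654_at -0.037. With median centring the 3 FAS probe sets were 0.35, 0.34 and 0.38 (adjusted p = 0.0155, 0.0459 and 0.026 by limma), and CFLAR 210564_x_at and 239629_at were 0.21 each. With a common trimmed mean FAS 216252_x_at was 0.020 and CFLAR 217654_at -0.18.

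With the replicate number as a block, 5 members were higher and 9 lower, where CFLAR 208485_x_at was added (limma adjusted p = 0.0291). The deviations of same-numbered arrays correlated at -0.01 after quantile normalization. This cannot tell whether such arrays shared a culture or a day, since that normalization removes shifts common to a whole array. With 2 arrays per clone and no detection calls, little can be read from the dim probe sets of FASLG, TNFRSF10C and TNFRSF10D.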

Other observations

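Of 3 monocyte and macrophage genes with a probe set, 2 could be tested and limma called 0 (0 at unadjusted p under 0.05), with summed intensities of 40 and 31.6 in DLEU1-downregulated cells, against 34.7 and 35.3 in control cells. The fibroblast marker COL1A1, by a cross-hybridising probe set, read 110.9 and 84.7 in DLEU1-downregulated cells, against 90.2 and 121.2 in control cells, above the arrays' medians and not called (limma adjusted p = 0.346). Of 5 fibroblast genes 4 could be tested, and the collagen gene COL1A2 was lower, at 16.7 and 1.4 in DLEU1-downregulated cells, against 44.8 and 29.4 in control cells (log2 change -1.13, limma adjusted p = 0.0239).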
